A study of Mus musculus with 3 samples.

Results

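Suprabasal keratinocytes are the epidermal cells that have left the basal layer and are building the skin barrier. They were identified in single-cell RNA libraries of mouse ear epidermis as 181 of 25062 deposited cell barcodes. A cell had to show 500 or more genes, and no more than 10% of its unique molecular identifiers (UMIs, each standing for 1 captured RNA molecule) could be mitochondrial. Krt1, Krt10, Krt2 and Lor together had to hold at least 0.5% of its UMIs and no less than Krt14 and Krt5 together. Cd74, an antigen-presentation gene of Langerhans cells (LCs), had to stay under 1%. The untreated library held 128 such cells among 9827 that passed the filters on genes and mitochondrial UMIs (1.30%, exact Clopper-Pearson 95% interval 1.09 to 1.55). The croton oil library held 23 of 8158 (0.282%, 0.179 to 0.423), and the microneedle library 30 of 6855 (0.438%, 0.295 to 0.624). All 3 shares fall in material that was enriched for LCs on magnetic beads, so they do not measure the make-up of the skin.

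The libraries came from the ear epidermis of male Cd1 mice, an outbred stock, with 1 library per group. Mice of the untreated group received only depilatory cream (Nair). The second group is labelled actone/croton oil/ olive oil, croton oil being a plant oil that irritates skin, and the last received multiple microneedle punches. Both were collected 48 h after the first treatment, and a library with the oil's vehicle alone was not analysed here. Epidermis was freed with trypsin, dissociated in a scratched dish, depleted of dead cells and enriched for LCs; keratinocytes are therefore cells that passed through this enrichment. The labels do not give the number of mice per library. With 1 library per group no test between groups was possible, and every interval below covers counting error within a library only.

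Keratinocytes divide in the basal layer, where they hold keratins 5 and 14 and are anchored to the basement membrane by hemidesmosomes and integrins. On leaving it they exchange these keratins for Krt1 and Krt10, strengthen their desmosomes and form the spinous layer. In the granular layer they make loricrin (Lor), filaggrin (Flg) and related proteins of the cornified envelope together with the ceramide lipids of the barrier, and proteases such as Klk5 and Klk7 later release the dead squames. Krt2 is a further type II keratin of upper layers, prominent in the ear and other thin mouse skin. Injured or hyperproliferative epidermis is known for keratins 6, 16 and 17 and for the alarmins S100a8 and S100a9.

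The median suprabasal cell held 24129 UMIs in the untreated, 37514 in the croton oil and 6982.5 in the microneedle library. Cells with under 3000 UMIs numbered 12, 7 and 9 in that order. The deepest suprabasal cell gave 2.68%, 11.6% and 18.2% of the UMIs of its group, so sums over the treated cells lean on few cells. Values below without 1 cell are an alternative chosen after seeing the data. The lowest keratin and Lor sum inside the rule was 0.584%, 0.999% and 0.529% of UMIs, and the highest just outside it 0.495%, 0.230% and 0.399%. The Cd74 limit removed 10, 2 and 0 cells that met the keratin rule, and the filters on genes and mitochondrial UMIs 14, 6 and 10. The untreated library shared 32 barcodes with the croton oil and 17 with the microneedle library, which shared 13 with each other. They include that of 1 untreated suprabasal cell, and no barcode was suprabasal in both of its libraries.

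All 7 markers of suprabasal keratinocytes (Krt10, Krt2, Lor, Krt77, Krtdap, Sbsn and Krt1) stood at 20 CPM (UMIs per 1000000 summed UMIs) or more in the suprabasal cells of every library. Krt77, Krtdap and Sbsn were not used by the rule. Krtdap, which encodes a secreted peptide of differentiating keratinocytes, was found in 128 of 128 suprabasal cells of the untreated, 23 of 23 of the croton oil and 30 of 30 of the microneedle library. The 6 fibroblast markers had no UMI in any suprabasal cell group. The 13 genes of the hair follicle and infundibulum list summed to 3448.5, 832 and 1376 CPM, with 4, 3 and 4 of them at 20 CPM or more. Cst6, a cystatin that other lists here also hold, made up 3105, 414 and 1065 CPM of this, Defb6 196, 179 and 58.1, and Krt17 88.5, 227 and 218. Per untreated cell the list ran from 0 to 138494 CPM with a median of 853, while Krt25, Krt27 and Krt71 of the list were at 0 in all 3 libraries. Its part in the results was not tested. The 7 melanocyte genes summed to 18.6, 15.4 and 24.5 CPM, with Dct, Mlana, Tyrp1 and Tyr at 0. T cell markers summed to 41.8, 247 and 158 CPM, with 1, 6 and 3 of 8 at 20 CPM or more and Trac at 0. LC markers were present throughout: their summed level was 4979, 6879 and 8289 CPM in the same order, with all 10 of 10 at 20 CPM or more. Per cell it ranged from 0 to 26454 CPM in the untreated library.

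The untreated basal cells, the comparison group named by the rule, held more LC RNA than the suprabasal cells. They were 96 cells with at least 0.3% Krt14 and Krt5, a sum above that of the suprabasal genes, and Cd74 under 1%. Their median Cd74 share was 0.598% of UMIs, against 0.0216% in suprabasal cells and 1.93% in LCs, and 82 of the 96 were at 0.2% or more. The class II gene H2-Aa stood at 940.3 CPM in untreated suprabasal, 3176 in basal and 9585 in reference LCs. Below a Cd74 share of 0.2%, 97 suprabasal and 14 basal untreated cells remained. Genes lower in suprabasal cells are given with their LC level where it matters, and the part of LC RNA in each value was not tested.

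The sequences upstream of 3 of these genes are shown because the expression data turn on these genes: Krt2 divided the untreated cells, Lor ordered those cells, and Krtdap was in every suprabasal cell. Each is the 250 bases before the start of the canonical transcript (GRCm39 genome, GENCODE M39), 5′ to 3′ on the strand of the gene. Capitals mark matches, on either strand, to 3 short motifs: the core promoter element TATAAA, the AP-1 site TGANTCA and the box of Krüppel-like factors, CACCC. No printed matches overlap.

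Krt2 (chr15:101726606-101726855, minus strand): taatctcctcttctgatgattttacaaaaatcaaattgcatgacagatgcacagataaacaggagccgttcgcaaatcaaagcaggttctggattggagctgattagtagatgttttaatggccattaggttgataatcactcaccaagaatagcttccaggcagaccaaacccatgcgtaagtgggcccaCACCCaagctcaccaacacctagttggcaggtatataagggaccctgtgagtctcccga
Lor (chr3:91990450-91990699, minus strand): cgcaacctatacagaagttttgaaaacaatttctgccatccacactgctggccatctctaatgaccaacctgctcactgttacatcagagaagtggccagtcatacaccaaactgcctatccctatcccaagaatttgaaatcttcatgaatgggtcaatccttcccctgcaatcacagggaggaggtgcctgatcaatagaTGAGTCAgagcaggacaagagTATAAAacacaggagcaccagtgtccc
Krtdap (chr7:30487077-30487326, plus strand): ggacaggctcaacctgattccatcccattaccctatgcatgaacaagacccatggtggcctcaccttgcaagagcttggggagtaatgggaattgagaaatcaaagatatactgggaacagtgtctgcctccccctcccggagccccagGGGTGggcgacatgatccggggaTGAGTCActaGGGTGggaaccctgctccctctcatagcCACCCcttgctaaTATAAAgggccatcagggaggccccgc

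The Lor and Krtdap sequences each had TATAAA 27 bases before the start, and TGANTCA at 48 and 78 bases. Krtdap had CACCC at 101, 68 and 40 bases, and Krt2 had it at 59. Among 21656 protein-coding genes, windows of the same length held TATAAA in 12%, TGANTCA in 6.18% and CACCC in 53.0%. Of 6 suprabasal markers (Krt10, Krt2, Lor, Krt77, Krtdap and Sbsn), 3, 3 and 5 held them. The 12 genes furthest above basal level, named further on, held them in 6, 3 and 8 cases, and the 12 furthest below in 2, 3 and 11. These matches describe the sequence only.

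Several of the genes lie side by side. Krt1, Krt2, Krt77 and Krt5 are on chromosome 15, Sbsn, Dmkn and Krtdap follow each other on chromosome 7, and Lor, Flg, Flg2, Hrnr, Ivl and the Lce and Sprr genes are on chromosome 3, in the epidermal differentiation complex. Krt10 and Krt14 are on chromosome 11. Outside the printed windows, 6 other genes named below are Krt10 (chr11:99276072-99280195), Krt77 (chr15:101767166-101778245), Krt16 (chr11:100136917-100139795), Hrnr (chr3:93227056-93240877), Flg2 (chr3:93104585-93128698) and Slurp1 (chr15:74596167-74599892), each given with the full extent of the annotated gene.

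The 4 genes that chose the cells differed in balance between the libraries, which is a description, since the rule used them. Krt10, the type I partner of Krt1 and Krt2, stood at 24396 CPM in suprabasal cells of the untreated library, 5041 of the croton oil library and 17253 of the microneedle library. Krt2 stood at 16004.5, 419 and 4866 CPM. Lor, the main protein of the cornified envelope, stood at 9302, 73.6 and 2309 CPM, or 1207 after microneedling without 1 cell. Krt1 had the opposite order between untreated and treated cells, at 2858, 14988 and 8308 CPM. UMIs of a 3′ library do not scale with transcript length, so the 4 can be set side by side. Of their UMIs, Krt10 made up 46.4% and Krt1 5.44% in untreated cells, whereas Krt1 made up 73.0% in croton oil and 25.4% in microneedle cells. Krt1 led the 4 genes in 2 of 128 untreated, 20 of 23 croton oil and 4 of 30 microneedle cells. Lor led in 20 untreated cells, 0 croton oil cells and 1 microneedle cell, and had no UMI in 35 of 128, 12 of 23 and 17 of 30.

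The Krt1 level of the microneedle cells depended on how the cells were limited. On the log2((CPM + 5)/(CPM + 5)) scale used for every change below, it was 1.54 above untreated, and -0.10 among cells with Cd74 under 0.2%, of which the microneedle library held 22. The basal keratins stayed low in untreated suprabasal cells, with Krt14 at 266 CPM against 11437 in basal cells. Krt14 was 5037 CPM in suprabasal cells after croton oil and 3522 CPM after microneedling, while basal cells there held 18386 and 18802 CPM. Krt5, its partner, stood at 180.4, 245 and 589 CPM in suprabasal cells of the 3 libraries.

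**Figure D1:**
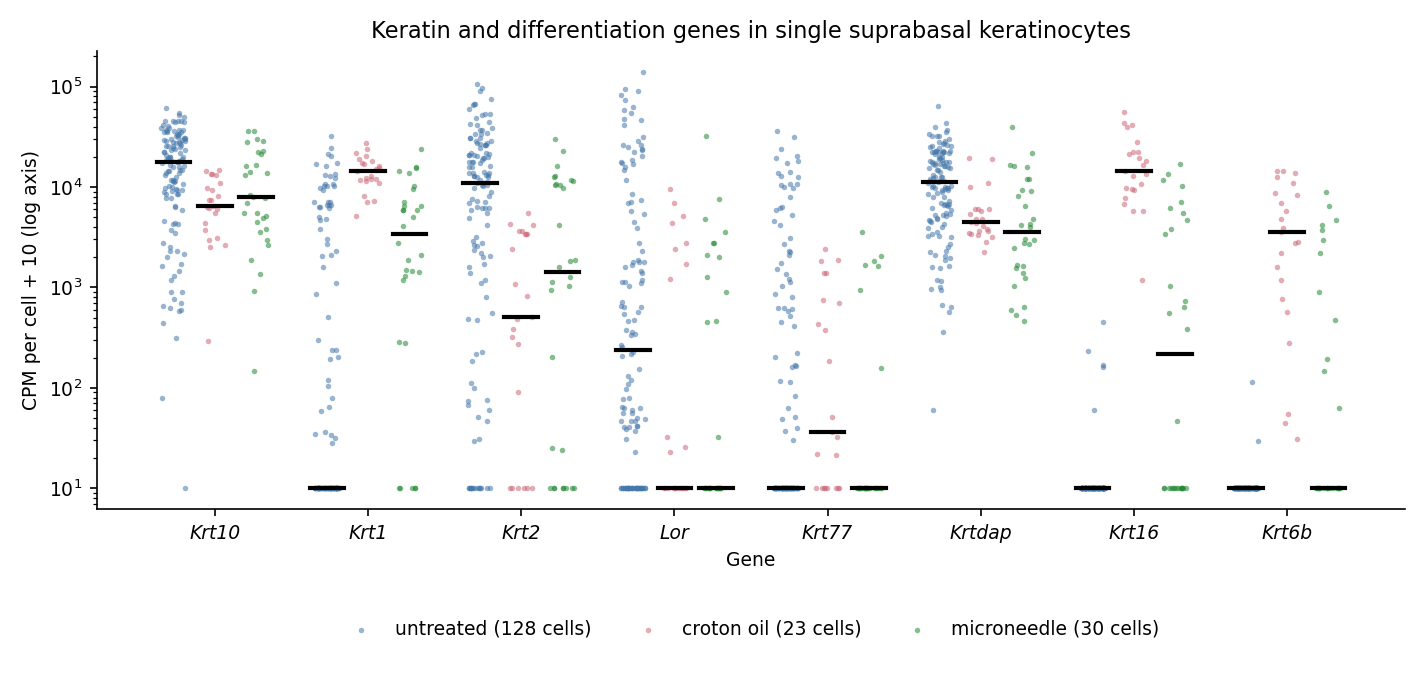
CPM per cell plus 10 on a log axis for 8 genes, each point 1 suprabasal cell (128 untreated, 23 croton oil, 30 microneedle) and each bar the median of its library. All 23 croton oil cells had Krt1, Krt16 and Krt6b UMIs, while Krt16 was at 0 in 123 of the 128 untreated cells.

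Untreated suprabasal cells differed from basal cells first in barrier and differentiation genes. Of 7788 genes compared, 997 (12.8%) lay 2-fold or more above basal level and 1917 (24.6%) 2-fold or more below, with a median change over all genes of -0.35. A gene entered with at least 20 CPM in either cell group and at least 10 UMIs over both. The cells were chosen on keratins that mark this same axis, so these counts and those of the gene lists in this library are given with no test and support nothing by themselves. A gene that entered through its high group alone had to differ, here and in every comparison below.

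The split between higher and lower genes moved with the scaling. With TMM factors, which centre the bulk of genes, 1652 genes were higher and 955 lower, so that the higher share went from 34.2% to 63.4% and the median of all genes to 0.22. The genes of the rule and every gene counted below as higher or lower by list keep their direction under TMM, while Sptlc2, Cldn1, Ocln and Tjp1, which lie between the limits, turn to 0.06 to 0.16 above basal level.

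Krt77, a type II keratin of differentiating cells, had the largest change among the genes the rule did not use, at 8.48, from 3.19 CPM in basal to 2929 CPM (counting interval 2874 to 2984) in suprabasal cells. The filaggrin-like proteins hornerin and filaggrin-2 followed: Hrnr reached 1966 CPM from 1.42. Flg2 reached 1647 CPM from 2 UMIs in basal cells, a ratio of 2321-fold (counting interval 642 to 19167). Klk7, a protease that cuts the links between squames, reached 864 CPM from 1 UMI, a ratio of 2434-fold (counting interval 437 to 96176.5). Cdsn encodes corneodesmosin, a protein that holds squames together, and stood at 826 CPM against 1.06. Slurp1, a secreted Ly6-type protein of keratinocytes, stood at 770.4 CPM against 1.06. The other genes among the 12 highest were Gm94 (1839.9 CPM), Orm1 (1610.5), Wfdc21 (1535), Crct1 (975.4), Sprr5 (807) and Lce1m (748). None of these 12 exceeded 4.36 CPM in LCs, so their suprabasal level was far above that found in LCs of the same library.

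Of 18 early differentiation (spinous) genes, all were compared, 15 were higher by 2-fold or more, 0 lower, and the list's median was 3.16. Krtdap stood at 16241 against 412 CPM, and its neighbour Sbsn, which encodes suprabasin, at 3596 against 45.1. Dsc1 and Dsg1a, desmosomal cadherins of upper layers, stood at 295 against 0.710 and 1634 against 222 CPM. In basal cells 56.7% of the Sbsn UMIs were in 1 cell, and without it the level was 19.8 CPM. The members between the limits were Sfn (0.53), Fgfbp1 (0.43) and Ndrg1 (-0.67).

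Cornified envelope genes formed the list furthest from basal level. Of 29 listed genes 23 were compared, all 23 at least 2-fold higher, with a median of 4.64, or 5.15 when the 4 genes without a UMI in basal cells are set to their lower bound. Asprv1, a protease that processes filaggrin, stood at 1873 against 47.9 CPM, and Spink5, an inhibitor of kallikreins, at 1900.3 against 29.5. Of the basal Asprv1 UMIs 87.4% were in 1 cell, and 6.13 CPM remained without it. Klk5, another squame protease, had no basal UMI and was at least 264-fold higher, taking a floor of 3 UMIs over the basal cells. Flg itself reached 386 CPM from 2 basal UMIs. Involucrin (Ivl), an early envelope protein, was at 82.2 CPM. Of the 6 genes not compared, Tgm5 had 12.9 CPM, Tgm3 10.5, Sprr1a 8.90, Lce3c 0.539, Rptn 0.270 and Sprr3 none.

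Of 24 genes for barrier lipids, 21 were compared, 19 were higher and 1 lower (median 3.11). Elovl4, which makes the very long fatty acids of barrier ceramides, stood at 786 against 11 CPM. Abca12, the transporter that loads lamellar granules, stood at 580.1 against 29.8, and Elovl1 at 630.5 against 30.2. The lipoxygenase Alox12b had no basal UMI and was at least 136-fold higher. Sgms2, which makes sphingomyelin, was the lower gene, at 12.7 against 31.9 CPM, and Sptlc2, a subunit of the enzyme that starts ceramide synthesis, was between the limits (-0.46).

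Junction genes differed by member. Of 14 desmosome genes 12 were compared, 8 higher and 2 lower (median 1.73). The lower genes were the basal cadherins Dsg3 (28.3 against 200.2 CPM) and Dsg2 (1.89 against 51.8), opposite to Dsg1a and Dsc1, while Dsc3 was near equal (0.39). Of 17 tight and gap junction genes 13 were compared, 7 higher and 0 lower (median 1.81). They included the connexins Gjb5 and Gjb2, with Gjb5 at 316 against 35.5 CPM, and the tight junction genes Cldn4 (204 against 8.87), Cgn and Tjp3. Cldn1, Ocln and Tjp1 lay between the limits, at -0.40, -0.36 and -0.46, and had 479, 203 and 162 CPM in LCs.

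Basal adhesion genes were lower without exception among those compared: 17 of 18 listed genes entered, and all 17 were at least 2-fold lower (median -3.18). Krt15, a keratin of basal cells, went from 1794 to 4.04 CPM (-7.64). Col17a1 and Itgb4, components of the hemidesmosome, went from 711 to 45.6 and from 129.6 to 8.90 CPM. The laminin-332 chain Lamb3 had 3 suprabasal UMIs, and its basal level was 227-fold (counting interval 77.2 to 1104) higher. The LC levels of these genes were 2.55, 0.767, 0.371 and 0.404 CPM, far below the basal ones. Plec, Dst, Itgb1 and Cd44 of the same list had 335, 234, 180.1 and 1411 CPM in LCs.

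The 12 genes furthest below basal level were Krt15, Cdh13, Lamb3, Antxr1, Smoc2, Ifitm3, Ccnd2, Ccl27a, Postn, Il33, Sema5a and Thbs1. Cdh13, a cadherin anchored to the membrane by lipid, stood at 6.20 against 557 CPM. Ccnd2, a G1 cyclin, stood at 9.44 against 268, and the skin-homing chemokine Ccl27a at 5.93 against 201. The alarmin Il33 stood at 6.47 against 163. All 12 were under 10 CPM in LCs, with the highest value 6.43. Over all lower genes this did not hold: of the 1917, 1081 (56.4%) were higher in LCs than in basal cells, against 41.7% of all genes compared. With cells of Cd74 under 0.2%, which leaves 14 basal cells, 1870 genes were lower and 1185 higher. Lgals7 and Cst6, counted as higher in their lists, then stood at -0.03 and -0.80. For Cst6 92.6% of the basal UMIs were in 1 cell, and leaving out the cell with the most Cst6 UMIs in each group moved its change from 2.09 to 4.83.

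Transcription factors of epidermal differentiation were higher in part. Of 24 listed, 23 were compared, 10 higher and 3 lower (median 0.65). Cebpa was at 341 against 43.3 CPM, Grhl1 at 391 against 58.9, Grhl3 at 100.3 against 16.3, and Zfp750 at 153 against 30.2. Rora, a nuclear receptor, was at 1446 CPM against 582. Klf4, a Krüppel-like factor needed for the barrier, was at 854 against 379 CPM. The lower genes were Trp63 (287 against 641), the master regulator of stratified epithelium, Fosl1 and Id3.

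Of 14 Notch pathway genes 10 were compared, 4 higher and 2 lower, with a median of 0.05. The receptors Notch3 (86.0 against 10.6 CPM) and Notch2 (173 against 60.7) and the targets Hes1 (488 against 176) and Nrarp were higher. The ligand Jag2 (1.35 against 61.4) and the coactivator Maml2 (59.3 against 302, with 209 in LCs) were lower. Notch1 was below basal level by less than 2-fold (-0.94). The sign of the list's median turned under 5 of the alternatives, reaching -0.67 with no CPM minimum.

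Among protease inhibitors, 8 of 10 compared genes were higher and 0 lower (14 listed, median 2.24), with Serpinb12 at 294, Csta1 at 399.6 and Cst6 at 3105 CPM. For Cst6 46.0% of the suprabasal UMIs were in 1 cell, and 1696 CPM remained without it. Of 20 calcium-binding and S100 genes, 18 were compared, 7 higher and 4 lower (median 0.60). The calmodulin-like genes Calm4 (7902 against 247 CPM) and Calml3 were among the higher, and S100a6 (246 against 2366) and S100a10 among the lower. Of 20 genes of injured epidermis, 11 were compared, 6 higher and 2 lower (median 3.35). The higher ones were Sprr2d, Ereg, Sprr1b, Il36a, S100a9 and Il36g, all at most 255 CPM, and the keratins Krt6b and Krt16 were at 1.35 and 13.5 CPM. Krt17 was among the lower at -1.65, but 98.0% of its basal UMIs were in 1 cell, and without that cell it stood at 5.77 CPM in basal cells, below its suprabasal level of 88.5.

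Cell-cycle genes were low: of 16 S-phase and 16 G2/M genes, 5 and 2 were compared, with 3 and 2 lower, and Mki67, a marker of dividing cells, stood at 4.85 against 38.3 CPM. Rrm2 was the exception among the S-phase genes, at 33.4 against 13.1 CPM. Immediate early and heat-shock genes were lower in 7 of 14 and higher in 1 (median -1.02), with Fos at 416 in suprabasal, 1419.8 in basal and 3455 CPM in LCs. Glycolysis genes had 0 higher and 4 lower of 13 (median -0.50, and 0.02 with TMM), and lysosome and autophagy genes 3 higher and 3 lower of 16 (median 0.24). Map1lc3a (432 against 97.6 CPM), which marks autophagosomes, and cathepsin D (Ctsd, 370.0 against 89.4) were among the higher.

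**Figure D2:**
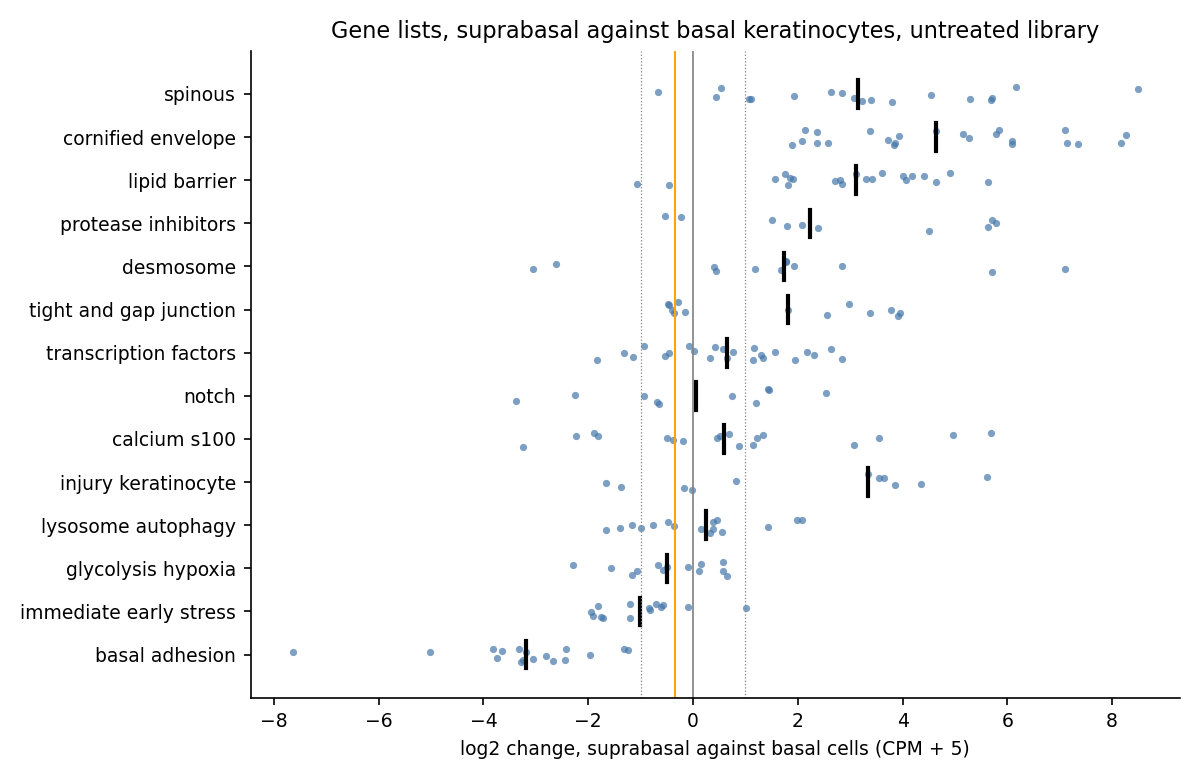
The log2 change of each compared gene of 14 lists between suprabasal and basal cells of the untreated library, each point 1 gene, with black bars for list medians, an orange line for the median of all genes (-0.35) and dotted lines at 2-fold. The cornified envelope list lies furthest to the right (median 4.64) and the basal adhesion list furthest to the left (-3.18).

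The treated libraries hold suprabasal and basal cells that were not used for the untreated contrast. Of the 997 genes higher in untreated suprabasal cells, 714 were compared in the croton oil library, and 84.6% were higher there too, against 44.8% of all genes. At least 2-fold higher were 39.2%, against 6.62% of all. In the microneedle library 855 were compared, with 90.8% higher (39.96% of all genes) and 49.8% at least 2-fold higher (7.45% of all). Of the lower genes, 66.8% were lower in croton oil (background 55.2%) and 76.1% in microneedle (background 60.0%). The same keratin rule chose the cells in each library, so this is a repeat of the description and no independent test.

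Within the treated libraries 6.95% of all compared genes were higher by 2-fold or more and 10.9% lower in suprabasal than in basal cells after croton oil, and 8.27% higher and 11.8% lower after microneedling, with medians over all genes of -0.11 and -0.16. With TMM the microneedle counts were 793 higher and 603 lower, so the higher share went from 41.1% to 56.8%. Basal adhesion genes were lower in 12 of 15 and 14 of 17 compared, with medians of -3.27 and -2.66. Cornified envelope genes were higher in 14 of 15 and 21 of 26, with 0 lower in either and medians of 2.38 and 2.14. Without 1 microneedle cell rich in late envelope genes, described further on, they were higher in 13 and lower in 3 of 22 there. Spinous genes had medians of 1.93 and 1.80. G2/M genes were lower in suprabasal cells in 15 of 16 and 16 of 16, of which 5 and 15 entered through the basal cells alone.

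The untreated suprabasal cells were not uniform, and Lor ordered them. Its level ran from 0 in 35 cells to 140941 CPM. Split by rank of the Lor share, 43 cells had at most 31.9 CPM of Lor, 43 had 36.7 to 1593, and 42 had 1658 or more. Their median depths were 23205, 22296 and 28787 UMIs, and the rank correlation of Lor with depth was 0.11. Cells of 1 library share its RNA preparation and free RNA, so correlations across them are given as descriptions over 128 cells.

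Over 3419 genes the median rank correlation with Lor was -0.02. The 8 most like Lor were Slurp1 (rho 0.85), Klk7 (0.81), Lypd5 (0.81), Hrnr (0.81), Wfdc21 (0.81), Cnfn (0.80), Flg2 (0.78) and Serpina12 (0.78). Slurp1 stood at 9.47, 269 and 1834 CPM from the low to the high Lor cells, and Flg2 at 14.6, 165 and 4275 CPM. Cnfn encodes cornifelin, a minor envelope protein, and stood at 48.2, 158 and 861 CPM. The squame proteases and their partners followed: Klk7 stood at 116, 453 and 1841 CPM, and Cdsn at 226, 657 and 1474 CPM. Flg had 10.3, 12 and 1018 CPM, so nearly all its UMIs were in the high Lor cells.

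Of the lipid genes, the lipoxygenases Alox12b (27.6, 95.1 and 285 CPM) and Aloxe3 (18.1, 65.1 and 208 CPM) and the lipase Lipk (6.03, 30.9 and 314 CPM) went up with Lor. Elovl1 stood at 254, 413 and 1131 CPM. Elovl4 did not follow Lor (rho -0.04), at 710.5, 906 and 747 CPM, nor did Acer1, a ceramidase (rho -0.26), at 318, 272 and 196 CPM. The order over the 3 groups is of cells by a measured gene and shows no time course.

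The 8 genes least like Lor were Serpinb3b (rho -0.59), Dsc3 (-0.58), Gnai1 (-0.56), Anxa2 (-0.55), Ckmt1 (-0.54), Clca3a2 (-0.52), Npm1 (-0.52) and S100a11 (-0.52). The desmosomal cadherin Dsc3, near equal between basal and suprabasal cells as a whole, stood at 1143, 976 and 371 CPM. Npm1, a nucleolar protein of ribosome assembly, stood at 562, 301 and 195 CPM. Among spinous genes Mt4, a metallothionein of squamous epithelium, stood at 2168, 1023 and 388 CPM, Sfn at 2315, 1701 and 936 CPM and Lgals7 at 8885, 7165 and 4051 CPM. Krt10 was close to level (22866, 26536 and 23874 CPM), whereas Krt2 summed to 6877, 19913 and 20379 CPM and Krt1 to 5319, 2738 and 889.7 CPM. The rank correlation with Lor was 0.19 for Krt2 and -0.25 for Krt1. Medians per cell were 5833, 19405 and 11437 CPM for Krt2 and 497, 0 and 0 for Krt1, which had UMIs in 55 of 128 cells.

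**Figure D3:**
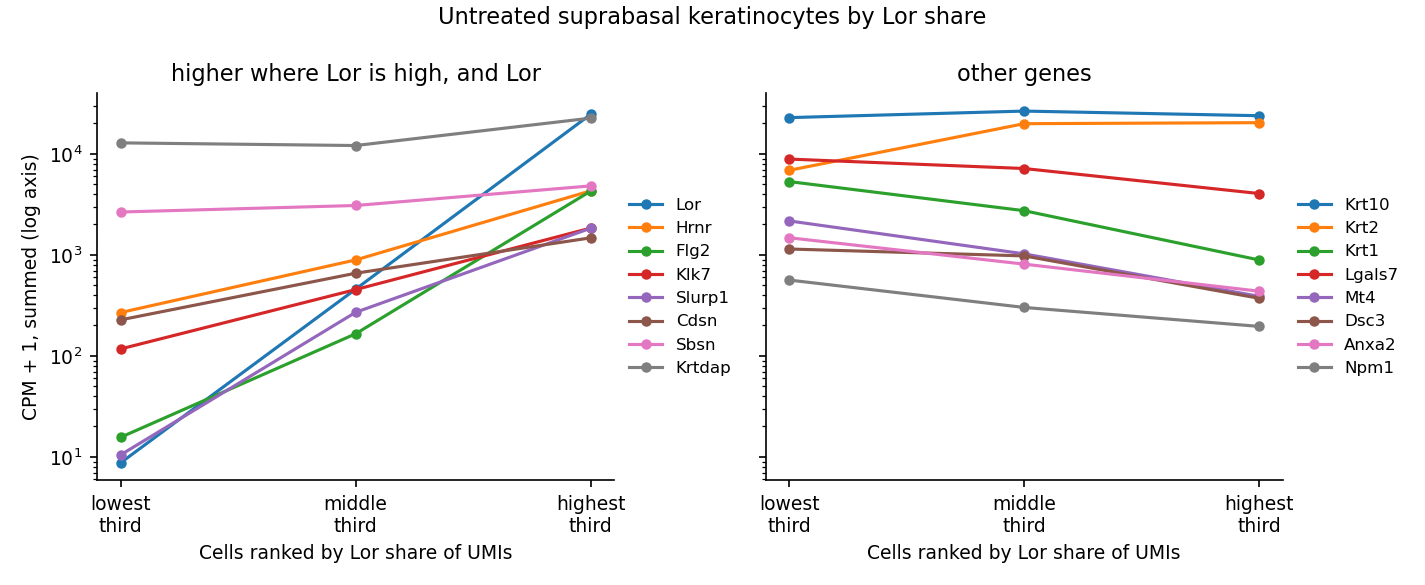
Summed CPM plus 1 on a log axis in untreated suprabasal cells ranked by Lor share (43, 43 and 42 cells), with genes chosen for display after their values were seen. Flg2 runs from 14.6 to 4275 CPM, while Dsc3 runs from 1143 to 371 and Krt10 stays between 22866 and 26536.

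Most untreated cells leaned to either Krt1 or Krt2. Among 118 untreated cells with at least 10 UMIs of the pair together, Krt1 made up at least 90% of them in 25, at most 10% in 80, and lay between in 13. This split was chosen after the values were seen. Over all 128 cells the rank correlation of the 2 genes was -0.66, and 73 cells had no Krt1 UMI at all. The median depth was 27264 UMIs in the Krt1 cells and 20766.5 in the Krt2 cells, and the median sum of the 4 rule genes was 4.14% and 4.77% of UMIs.

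Krt77 went with Krt1: it stood at 7798 CPM in the 25 Krt1 cells, with UMIs in 21 of them, and at 799.6 CPM in the 80 Krt2 cells, with UMIs in 23. Krt24, a type I keratin, went with Krt2, at 53.2 CPM in Krt1 cells and 599 in Krt2 cells, and had a rank correlation of 0.68 with Krt2. Their shared partner Krt10 differed little, at 23414 and 26578.5 CPM, as did Krtdap (16686 and 15243) and Sbsn (3762 and 3317). Lor summed to 6932 and 6684 CPM, but its median per cell was 31.1 CPM in Krt1 cells, with UMIs in 14 of 25, and 346 CPM in Krt2 cells, with UMIs in 62 of 80. Flg2 stood at 658 and 1441 CPM and Hrnr at 1052 and 2163, so both were higher in the Krt2 cells, while Asprv1 summed to 1671 and 1244. The Asprv1 medians per cell ran the other way. They were 36.7 CPM in Krt1 cells, with UMIs in 14 of 25, and 178 CPM in Krt2 cells, with UMIs in 54 of 80. Krt14 was 223 and 207 CPM, but Krt5 was 395 and 78.0 CPM and Krt17 197 and 36.8 CPM. Krt5 had UMIs in 7 of 25 and 11 of 80 cells and Krt17 in 6 and 11, each with a median per cell of 0. The follicle genes Sox9 and Lhx2 had 17.3 and 2.66 CPM in Krt1 cells, with UMIs in 3 and 2 cells, and 1.31 and 0 in Krt2 cells. Most of their UMIs were elsewhere: among the 10 untreated cells with under 10 UMIs of Krt1 and Krt2 together, 1 cell had 78 Sox9 and 1 had 48 Lhx2 UMIs. These 10 cells had a median depth of 6993.5 UMIs. Cst6 summed to 45458 CPM in them, against 1652 in Krt1 and 1702 in Krt2 cells. Its medians per cell were far closer, at 1429, 596 and 692 CPM, so few cells set that sum. Krt79, a follicle keratin, had 18 UMIs in 1 of the 10 cells.

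After croton oil no cell was of the Krt2 kind: 13 of 23 had at least 90% Krt1 and 10 lay between, and the correlation was -0.08. The 10 cells between had a median depth of 1454 UMIs, against 61496 in the 13 Krt1 cells, so depth moved with the split and its part was not tested. After microneedling 11 of 27 cells had at least 90% Krt1, 8 at most 10% and 8 lay between, with a correlation of -0.61. Krt77 was in 2 of its 11 Krt1 cells (24.9 CPM) and in 1 of its 8 Krt2 cells, which alone gave the 949.6 CPM of that group, so no relation is read from it. Krt24 had no UMI in its 11 Krt1 cells and UMIs in 7 of its 8 Krt2 cells. Krt16, a keratin of injured skin, had UMIs in 5 of the 11 Krt1 cells (2844 CPM) and 3 of the 8 Krt2 cells (77.4 CPM), with a median of 0 in both. The 8 cells between had the highest level, 3932 CPM with UMIs in 6 and a median of 8149 CPM, so no relation of Krt16 with either kind is read. Median Cd74 was 0.402% of UMIs in the Krt1 cells, 0.0467% in those between and 0.00653% in the Krt2 cells.

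**Figure D4:**
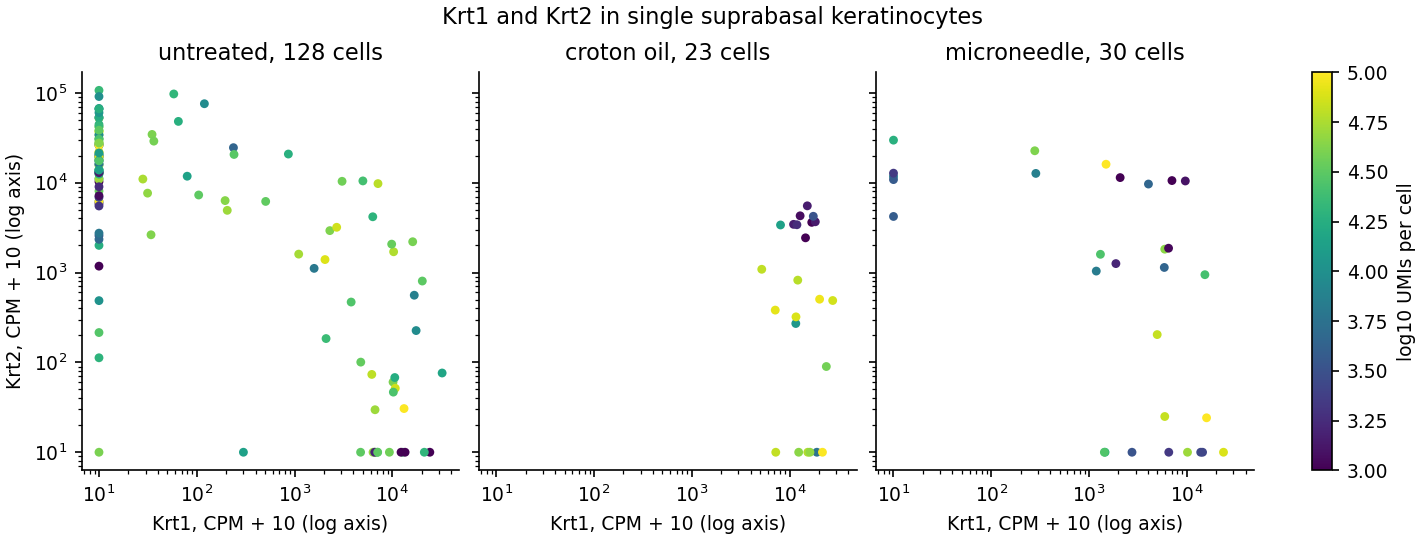
Krt1 against Krt2 in each suprabasal cell, as CPM plus 10 on log axes, coloured by log10 of the UMIs per cell. Most untreated cells lie near 1 of the 2 axes (80 with at most 10% Krt1, 25 with at least 90%), and the lowest of the 23 croton oil cells has 5183 CPM of Krt1.

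In summed UMIs, suprabasal cells after croton oil held keratins and alarmins of injured skin and few late differentiation transcripts. Of 6953 genes compared with untreated suprabasal cells, 730 (10.5%) lay 2-fold or more above and 812 (11.7%) 2-fold or more below, with a median of 0.06. With equal weight per cell the counts were 1264 and 1657. The sums rest mainly on the 13 deep Krt1 cells: Lor had 2 UMIs in these, whereas in the 10 shallow cells it was in 9, with a median of 2583 CPM. Asprv1 stood at 1873 CPM in untreated and 228 in croton oil cells by sums, but its medians per cell were 161 and 261 CPM, with UMIs in 84 of 128 and 20 of 23 cells. The 2 groups are 23 and 128 cells of 1 library each, so treatment and library cannot be told apart.

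Krt16 stood at 13.5 CPM in untreated and 18455 CPM (counting interval 18166 to 18747.5) in croton oil suprabasal cells, a change of 9.96. It was in all 23 croton oil cells, from 1171 to 55741 CPM with a median of 14483, and in 5 of 128 untreated cells. Basal cells of the same libraries held 11 and 1816 CPM, and LCs 0.0674 and 23.2. The ranges per cell did not overlap with those of untreated cells, of which the highest had 445 CPM. Krt6b, a type II keratin of injured skin, stood at 1.35 and 2169.7 CPM and was also in all 23 cells. Krt6a was 398 CPM in suprabasal and 1554 in basal cells after croton oil.

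S100a8 went from 1 UMI to 1478 CPM, a ratio of 5479.7-fold (counting interval 982 to 216607), and S100a9 from 57.4 to 1417 CPM, each in 20 of 23 cells. In the croton oil cells 62.6% of the S100a8 UMIs were in 1 cell, and 579 CPM remained without it. Both are also neutrophil genes. Of the 7 genes of the neutrophil list 4 stood at 20 CPM or more in these cells, the other two being Cxcr2 (17.8 CPM in untreated and 60.5 in croton oil suprabasal cells) and Mmp9 (15.6 and 52.2), while Csf3r, Retnlg and G0s2 had no UMI. The list's sum per cell ran from 111 to 33054 CPM with a median of 2282, and its part in the S100a8 and S100a9 values was not tested. The other genes among the 8 furthest up were Cstdc5 (2462 CPM) and Stfa3 (425), stefin-type protease inhibitors, Gpr15lg (1787), which encodes a ligand of Gpr15, Sprr2a3 (1465) and Ifitm3 (748), an interferon-induced membrane protein. Ifitm3 was 9.44 CPM in untreated suprabasal cells and 279.7 in untreated basal cells.

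Among the 8 genes furthest down, Slurp1 and Krt24 had no UMI after croton oil. Slurp1 was at least 216-fold lower and Krt24 at least 108-fold lower, taking a floor of 3 UMIs over the 23 cells. Flg2 was lower by a ratio of 694-fold (counting interval 192 to 5732), from 1647 CPM to 2 UMIs. Hrnr went from 1966 to 7.12 CPM and was in 3 of 23 cells. Wfdc21, Lce1m, Adh6a and Serpina12 each had 1 or 2 UMIs left. They had UMIs in 75, 19, 81 and 74 of 128 untreated and 2, 2, 1 and 1 of 23 croton oil cells, so for Lce1m the untreated level rested on few cells, with 39.1% of its UMIs in 1. Krt77 summed to 2929 CPM in untreated and 318 in croton oil cells, or 116 without the deepest cell. Its medians per cell ran the other way, at 0 and 26.7 CPM, with UMIs in 57 of 128 and 15 of 23 cells.

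By list, cornified envelope genes were lower in 20 of 26 compared and higher in 3 (median -2.46). The higher ones were Sprr1b (77.7 to 1396 CPM), Sprr1a (8.90 to 291) and Tgm3. Casp14, a protease of the granular layer, was level (114 and 115 CPM). Barrier lipid genes were lower in 11 of 21 and higher in 1, Sgms2 (median -1.14), with Alox12b at 145 and 4.75 CPM but Elovl4 at 786 and 669. Spinous genes were lower in 8 of 18 and higher in 2, Lgals7 and Sfn (median -0.71). Lgals7, or galectin-7, reached 22514 CPM from 6544. Protease inhibitors were lower in 6 and higher in 3 of 12. With equal weight per cell, the envelope genes Flg, Lce1a1, Lce1b and Lce1c turned, from -3.07, -3.11, -2.02 and -1.09 to 0.16, 0.71, 0.83 and 1.68, as did Il36g, a cytokine of injured epidermis, from -1.17 to 1.06.

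Genes of injured epidermis were higher in 12 of 17 and lower in 3 (median 1.85). Of the 17, 7 entered through the croton oil cells alone and 2 through the untreated cells alone, which fixed their direction. The lower ones were Il36a, Il36g and Ereg: Ereg, which encodes an EGF-receptor ligand, went from 97.6 CPM to 1 UMI, and Il36a from 62.0 to none. Tslp, a cytokine of keratinocytes, went from 11.6 to 89.0 CPM. G2/M genes were higher in 11 of 11 compared of 16 (median 3.02), with Mki67 at 4.85 and 74.8 CPM and Ube2c at 1.08 and 92.6. All 11 were under 20 CPM in untreated cells and entered through the croton oil cells alone, so the filter fixed their direction. Leaving out the cell with the most UMIs of each gene, 8 were higher with a median of 1.39, and Ube2c stood at 10.2 CPM. Their level stayed under that of basal cells after croton oil, at 181 and 235 CPM. Glycolysis genes were higher in 11 of 15 and lower in 0 (median 1.59), with Gapdh at 152 and 985 CPM.

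Other lists had few members past 2-fold or members in both directions: desmosome genes had 1 higher and 2 lower of 11 (median 0.00), tight and gap junction genes 1 and 4 of 13, Notch genes 1 and 0 of 9, transcription factors 3 and 3 of 23, immediate early genes 0 and 0 of 14, and lysosome genes 2 and 1 of 14. Dsg3, the basal desmoglein, was 28.3 CPM in untreated and 227 in croton oil suprabasal cells. Rora went from 1446 to 413 CPM and Hopx from 411 to 159. Cathepsin L (Ctsl) summed to 644 CPM in untreated and 39.2 in croton oil cells, where most UMIs of all genes were in the 13 deep cells (Ctsl at 14.6 CPM). The 10 shallow cells had 22 Ctsl UMIs in 8 of them, 245 CPM by sum with a median of 668 per cell, above the medians of 0, 56.3 and 59.7 CPM in the untreated Krt1 cells, cells between and Krt2 cells. At the depth of the shallow cells a median of this size is about a single UMI, so no direction is read for Ctsl. S100 and calcium-binding genes had 4 higher and 4 lower of 19, basal adhesion genes 2 and 1 of 7, and S-phase genes 0 and 1 of 4. With cells of Cd74 under 0.2%, 15 of the 23, the changes of Lce1c, Jag1 and Ctsz turned, to 0.96, -0.04 and -0.39.

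Suprabasal cells after microneedling also held injury keratins, and 1 of them carried most UMIs of several late envelope genes. Of 7038 genes compared with untreated, 712 (10.1%) lay 2-fold or more above and 408 (5.8%) 2-fold or more below, with a median of 0.12. With TMM the counts were 484 and 759, so the share of higher genes went from 63.6% to 38.9%, and with equal weight per cell they were 1096 and 945. Of the 712 higher genes, 390 (54.8%) were higher still in LCs, against 46.7% of all genes compared. Of the 408 lower ones, 12 (2.94%) were higher in LCs than in untreated suprabasal cells, against 48.5% of all. The part of LC RNA in these counts was not tested. The untreated cells are the same as in the croton oil comparison, so the 2 comparisons are not independent.

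The late cornified envelope genes of the Lce3 group had nearly all their UMIs among the 30 microneedle suprabasal cells in 1 cell. That cell held 27744 UMIs, or 3.58% of those of its group, with 3.86% in the 4 rule genes and 0.00360% in Cd74. Lce3c stood at 0.539 CPM in untreated cells, 3.56 after croton oil and 979 after microneedling, where it was in 5 of 30 cells and at 5.36 CPM without this one. Lce3f and Lce3d had no UMI in untreated cells and 681 and 544 CPM after microneedling, at least 842-fold and 672-fold higher against a floor of 3 UMIs over the 128 cells, but 100% and 99.8% of these UMIs were in the same cell. Basal cells of this library held Lce3c, Lce3f and Lce3d at 182, 104 and 129.8 CPM (480, 275 and 343 UMIs), where 98.8%, 99.6% and 99.7% of the UMIs of each gene were in 1 cell, while untreated basal cells had none. Rptn, or repetin, stood at 0.270 and 84.0 CPM, with every microneedle UMI in that cell. Sprr1a stood at 8.90 and 1111 CPM, and at 89.8 without it. Of 221 listed genes with at least 10 UMIs in these 30 cells, 20 had 50% or more of them in this cell, among them Slpi, Il36a, Asprv1 and Flg. Lce1m went from 748 CPM to 3 UMIs by sums, a ratio of 193-fold (counting interval 66.0 to 936). Its untreated UMIs were in 19 of 128 cells, with 39.1% in 1 of them, and its microneedle UMIs in 3 of 30 cells, so few cells of either library set this ratio.

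Krt16 stood at 2266 CPM after microneedling and was in 16 of 30 cells, with 57.5% of its UMIs in 1 cell. Without the deepest cell it was 1179 CPM. Per cell it ran from 0 to 16867.5 CPM with a median of 205, so it overlapped both other libraries. Krt6b stood at 705 CPM, in 12 of 30 cells, and Cstdc5 at 572, or 379 and 314 without that cell. S100a8 and S100a9 stood at 1189 and 1639.6 CPM, each in 13 of 30 cells, or 499 and 930.0 CPM without the cell rich in envelope genes. Here the neutrophil list reached 177168 CPM in 1 cell, 6 of its 7 genes were at 20 CPM or more, and its part in the S100a8 and S100a9 values was not tested.

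The genes furthest down, besides Lce1m, were Scgb1a1, Wfdc18, Krt24, Krt77, Ivl, S100a3 and the lncRNA Gm15501. Krt77 went from 2929 to 279 CPM and was in 7 of 30 cells, with 85.2% of its UMIs in 1 cell and 48.2 CPM without it. Scgb1a1, a secretoglobin, had no UMI after microneedling or croton oil, and was at least 34.8-fold and 37.9-fold lower. Ivl went from 82.2 to 5.17 CPM. Krt24 stood at 383 CPM in untreated and 32.3 in microneedle cells.

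Cornified envelope genes were higher in 6 and lower in 10 of 28 compared (median -0.57). The higher ones were Rptn, Sprr1a, Sprr1b, Lce1a1, Lce1b and Lce3c. Without the cell rich in envelope genes 3 of 26 were higher (Sprr1a, Sprr1b and Tgm3) and 18 lower, with a median of -1.61. Flg, Asprv1 and Cnfn, within 2-fold of untreated with it (-0.76, 0.26 and -0.52), were then at -3.29, -2.56 and -1.81, and Lce1a1 and Lce1b turned from 1.16 and 1.14 to -3.79 and -2.23. Barrier lipid genes were higher in 2 and lower in 7 of 22 (median -0.51). Both medians turned with the cells of Cd74 under 0.2%, to 0.32 and 0.08, so no direction is given for these lists. The same limit on Cd74 turned Klk7 and Cdsn from -1.09 and -1.13 to 0.28 and 0.20. The 22 microneedle cells under this limit include the cell rich in envelope genes. Its 27744 UMIs weigh more there, among 279377 UMIs, than among the 773952 of all 30 cells. It held 122 of the 313 Klk7 and 159 of the 291 Cdsn UMIs of the 30 cells. Its part in these turns was not tested. Spinous genes were higher in 0 and lower in 3 of 18 (median -0.71), or lower in 5 without that cell. Leaving out the cell with the most UMIs of each gene in each group, 9 of the 18 were lower, with a median of -1.002, as were 7 of 11 protease inhibitors (median -1.12) and 6 of 13 tight and gap junction genes (median -0.76).

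Genes of injured epidermis were higher in 13 of 17 and lower in 0 (median 1.60). Of the 17, 7 entered through the microneedle cells alone, which fixed their direction. Without the cell rich in envelope genes 11 of 16 were higher and 2 lower (median 1.54). Il36a, counted as higher (62.0 to 132 CPM), was then at 12.1 CPM, and Sprr2h went from 385 to 16.1 CPM. Ereg was level (97.6 and 109.8 CPM), with 67.1% of its microneedle UMIs in 1 other cell. Krt17, counted among the higher at 1.26, was at -0.43 without the deepest cell. Plaur, the urokinase receptor, had 3 UMIs in untreated cells and 40.1 CPM after microneedling. Glycolysis genes were higher in 5 of 14 and lower in 0 (median 0.72), with Gapdh at 474 CPM. Of the G2/M genes Mki67 alone was compared and higher, at 22.0 CPM, whereas microneedle basal cells held 183; with Cd74 under 0.2% its change turned from 1.45 to -0.62.

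Of the other lists, calcium-binding and S100 genes had 6 higher and 2 lower of 19, with S100a6 at 246 and 1336 CPM and S100a4 turning from 1.52 to -0.02 with Cd74 under 0.2%. Protease inhibitors had 1 higher and 4 lower of 11, with Slpi, the secretory leukocyte protease inhibitor, at 2.43 and 262 CPM, or 18.8 without the cell rich in envelope genes, when 0 were higher and 6 lower of 10. Basal adhesion genes had 3 higher and 0 lower of 9, 1 of them Krt15, whose 16 UMIs gave 1.51 but -0.76 with equal weight per cell, with Itga6 at 63.6 and 221 CPM and Cd44 at 149 and 446. Desmosome genes had 1 and 1 of 11, tight and gap junction genes 0 and 3 of 13, Notch genes 0 and 0 of 9, transcription factors 1 and 2 of 23, immediate early genes 1 and 1 of 14, S-phase genes 0 and 0 of 4, and lysosome genes 1 and 1 of 15.

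**Figure D5:**
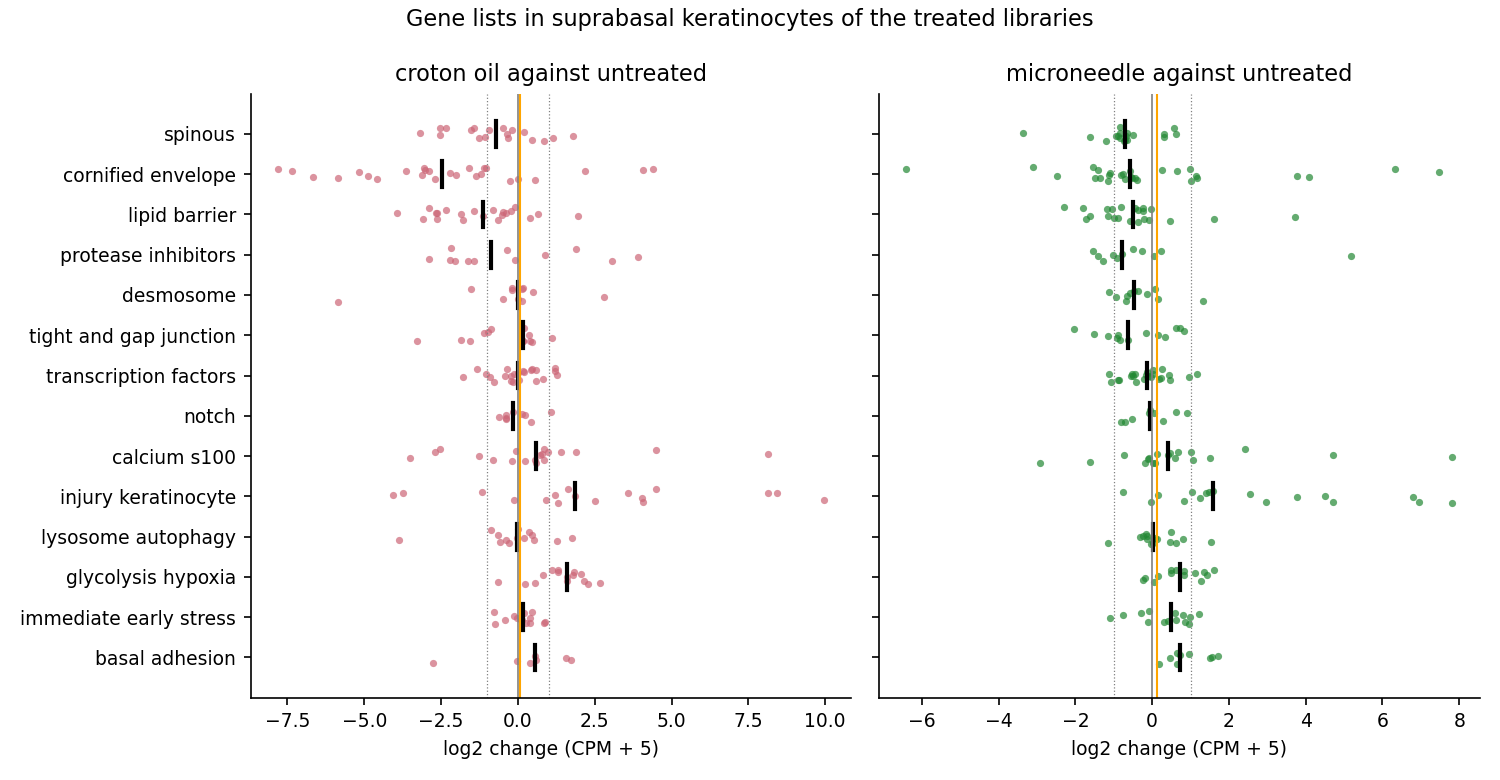
The log2 change of each compared gene of 14 lists in suprabasal cells of the croton oil and microneedle libraries against untreated, with black bars for list medians, an orange line for the median of all genes and dotted lines at 2-fold. The cornified envelope median is -2.46 after croton oil and -0.57 after microneedling (-1.61 without 1 cell), and the injury list lies to the right in both (1.85 and 1.60).

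Set against each other in summed UMIs, the suprabasal cells of the treated libraries differed in late envelope genes, a difference that leaned on 1 microneedle cell. Of 7099 genes, 270 (3.8%) were higher by 2-fold or more after croton oil and 722 (10.2%) higher after microneedling, with a median of -0.06. These counts moved far with the processing: they were 1251 and 1828 with equal weight per cell, 796 and 1211 with Cd74 under 0.2%, and 389 and 575 with TMM, so the share of croton oil went from 27.2% to 40.6%, 39.7% and 40.4%. Cornified envelope genes were lower after croton oil in 17 of 26 and higher in 1, Tgm3 (median -2.20). Without the cell rich in envelope genes they were lower in 7 and higher in 3 of 21 (median -0.45). Barrier lipid genes were lower in 7 of 21 and higher in 0 (median -0.58), or lower in 6 of 20 without that cell. Klk7 summed to 19.0 and 404 CPM, and Cnfn to 26.1 and 267, with croton oil first, while without the cell the microneedle values were 256 and 106. Per cell the libraries were close: Klk7 had UMIs in 7 of 23 and 7 of 30 cells, and Cnfn in 7 of 23 and 8 of 30. Every median was 0, so no direction is read for these genes. G2/M genes were higher after croton oil in 11 of 11, of which 10 entered through the croton oil cells alone, so nothing is read from that count. Genes of injured epidermis split, with Krt6a, Krt6b, Krt16 and Lcn2 higher after croton oil and Sprr2h, Il36a, Ereg and Plaur higher after microneedling. Without the cell, 8 were higher after croton oil, Sprr2h among them, and 2 lower. Spinous genes had 3 higher and 2 lower of 18, and desmosome genes 1 and 1 of 11.

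Basal cells of the same libraries give the level beside which these values stand. Genes of injured epidermis were higher in basal cells in 12 of 14 compared after croton oil and 13 of 16 after microneedling, against 11% and 6.02% of all genes (lower were 16% and 5.64%). Of these 14 and 16 genes, 9 and 11 entered through the treated cells alone, so the filter fixed their direction. Of the genes lower in treated basal cells, 67.2% after croton oil and 82.9% after microneedling were higher in LCs than in untreated basal cells, against 42.3% and 42.2% of all genes compared, and the untreated basal cells had the Cd74 share given above. Krt16 stood at 1816 and 2662 CPM in those basal cells, and Krt6a at 1554 and 2794, each above its level in untreated basal cells (11 and 29.5, the latter 2.88 without 1 cell). With TMM 1789 genes were higher and 528 lower after croton oil, so the higher share went from 40.8% to 77.2%. G2/M genes were higher in 16 of 16 in both, 14 and 14 of them entering through the treated cells alone. Elovl4 was also higher in both, at 54.5 and 101 CPM (56.0 without 1 cell) against 11, but stayed below its suprabasal level of 669 and 575.

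Shares of cells with a UMI were compared after thinning each cell to 3000 UMIs, which left 116, 16 and 21 suprabasal cells and dropped 12, 7 and 9. Krt16 was found in 3 of 116 (2.59%, 0.537 to 7.37) untreated, 16 of 16 (100%, 79.4 to 100) croton oil and 8 of 21 (38.1%, 18.1 to 61.6) microneedle cells, with exact Clopper-Pearson intervals. Its share in LCs, which should lack it, was 0.0326%, 6.87% and 1.52%. Hrnr was in 69 of 116 (59.5%, 49.97 to 68.5), 1 of 16 (6.25%, 0.158 to 30.2) and 6 of 21 (28.6%, 11.3 to 52.2). Flg2 was in 47 of 116 (40.5%, 31.5 to 50.03) untreated cells, in 0 of 16 croton oil cells at this depth (a limit of 18.8% taking 3 cells of 16, and 20.6% by Clopper-Pearson), and in 5 of 21 (23.8%, 8.22 to 47.2) microneedle cells. Without thinning 2 of 23 croton oil cells had a Flg2 UMI. For Flg and Krt77 the intervals of the 3 libraries overlapped: Flg was in 16.4%, 6.25% and 19.0%, and Krt77 in 38.8%, 31.2% and 19.0% of cells. Without thinning the Krt16 shares were 3.91%, 100% and 53.3%, and those of Krt77 44.5%, 65.2% and 23.3%.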

How the data were processed

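The deposited values were raw UMI counts per gene and cell barcode, deposited by the authors as Cell Ranger output (version 8.0.0, per the file headers) of Chromium 3' libraries (version 3.1, per the labels) on GRCm39 per the submitters' processing notes. Each library's features include 33767 of 34289 identifiers found in GENCODE M39. Total counts were 127666928, 119360952 and 117178809 UMIs in the untreated, croton oil and microneedle libraries. Suprabasal and basal cells were taken by fixed shares of UMIs as given above, and reference LCs by Cd74 of at least 1%, under 0.5% for the suprabasal and under 0.3% for the basal sum. UMIs were summed per cell group and divided by the group's total (CPM). Changes are log2((CPM + 5)/(CPM + 5)), which understates changes of low genes. The genes of the rule, Cd74 included, were left out of all gene counts. Intervals are exact Poisson or Clopper-Pearson at 95% and cover counting error only; with 1 library per group there was no test. Named genes were the markers, the 12 highest and 12 lowest against basal cells and the 8 highest and 8 lowest per treatment (at least 50 CPM in either group), list members, and the 8 genes most and least like Lor by Spearman's rho. Scrublet (scanpy 1.11.5) called 1, 0 and 0 cells by itself and had not worked, so doublets were limited by Cd74 alone; removing the highest scores at 0.8% per 1000 cells was an alternative and took 1, 0 and 2 suprabasal cells. Other alternatives were stricter rules, TMM scaling (edgeR 4.0.16, R 4.3.3), equal weight per cell, other pseudocounts, filters and thinning; a minimum of 5000 UMIs and leaving out the deepest cell, each gene's top cell or 1 microneedle cell rich in late envelope genes were added after seeing the data. The procedure was tested on simulated counts. The members and lists were chosen with earlier results of these data known. Python 3.11.15, numpy 2.4.6, scipy 1.17.1 and pandas 2.3.3 were used.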

Additional observations from a re-analysis of the deposited data

Results flagged for a closer look

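Among 267 named and listed genes, 5 differed in sign between libraries in the suprabasal against basal contrast, with 2-fold or more in both directions; with 1 library each, the difference between libraries was not tested. Krt17, a keratin of injured skin and follicles, had changes of -1.65 in the untreated, 1.23 in the croton oil and -1.05 in the microneedle library on the log2 scale, with 88.5, 227 and 218 CPM in suprabasal cells. This rests on few cells: 98.0% of its untreated basal UMIs were in 1 cell, and leaving out the cell with the most Krt17 UMIs in each group gave 2.67, 0.64 and -2.26. Serpinb2, a serpin-type protease inhibitor, had changes of -0.23 in the untreated, 1.30 in the croton oil and -1.01 in the microneedle library. Rrm2, a subunit of ribonucleotide reductase, had changes of 1.08 in the untreated, -1.07 in the croton oil and -1.56 in the microneedle library. Cathepsin L (Ctsl) had changes of 1.43 in the untreated, -2.62 in the croton oil and 0.45 in the microneedle library, with 644, 39.2 and 545 CPM in suprabasal and 235, 266 and 398 in basal cells; without its top cells the microneedle change was -0.84. Most UMIs of the croton oil group were in 13 deep cells, with a Ctsl median of 11.2 CPM, whereas the 10 shallow cells had a median of 668 CPM, with UMIs in 8 of 10. Cathepsin Z (Ctsz) had changes of -1.40 in the untreated, 0.0377 in the croton oil and 1.06 in the microneedle library, and stood at 114 CPM in untreated LCs.

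The feature lists hold 4 transgene sequences that no label mentions. The mCherry feature stood at 1066 CPM in suprabasal cells after croton oil and at 766 CPM after microneedling, against 227 CPM in untreated ones, where it had UMIs in 45 of 128 cells. It was found in 22 of 23 and 20 of 30 treated cells. Basal cells held 986, 2179 and 3008 CPM, and LCs 1.24, 5.14 and 2.03. The eGFP feature had 1, 0 and 0 UMIs in suprabasal cells, and tdTomato and creER none.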

How the results depend on the processing

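No paired analysis was possible because each group has 1 library. Counts of cells and genes stayed within 1.5 times their value except as follows. Cell counts became 15 (croton oil, Cd74 under 0.2%), 15 (croton oil, at least 5000 UMIs), 15 (microneedle, keratin and Lor sum of at least 2%) and 16 (microneedle, at least 5000 UMIs). Suprabasal against basal, untreated: 1652 higher and 955 lower with TMM, and 1109 lower at 50 CPM. Croton oil against untreated: 1264 higher and 1657 lower with equal weight per cell, and 458 higher at 50 CPM. Microneedle against untreated: 1096 higher and 945 lower with equal weight, 370 higher at 50 CPM, and 759 lower with TMM. Suprabasal against basal, croton oil (500 higher, 784 lower): 1024 higher and 1440 lower with equal weight, 1271 lower with a sum of at least 2%, 1543 lower with Cd74 under 0.2%, 326 higher and 411 lower at 50 CPM. Suprabasal against basal, microneedle (641 and 918): 1160 and 2114 with Cd74 under 0.2%, 1181 and 1614 with equal weight, 1381 lower with a sum of at least 2%, 603 lower with TMM, 391 and 446 at 50 CPM. Croton oil against microneedle (270 and 722): 796 and 1211 with Cd74 under 0.2%, 1251 and 1828 with equal weight, 406 higher without the deepest cells, 149 and 354 at 50 CPM. Basal cells, croton oil against untreated (855 and 1243): 1789 and 528 with TMM, 786 lower at 50 CPM. Basal cells, microneedle against untreated (468 and 438): 962 and 683 with Cd74 under 0.2%, 257 and 275 at 50 CPM. Fewer genes enter at 50 CPM, and the causes of the other shifts were not tested. Flg shares without thinning were 25.8% (untreated) and 39.1% (croton oil), and Krt77 shares 29.8% (untreated, thinned to 1500 UMIs) and 65.2% (croton oil, no thinning). After microneedling Krt1 reversed to -0.10 with Cd74 under 0.2%, and Krt15 from 1.51 to -0.75 (sum of at least 2%), -0.62 (Cd74 under 0.2%) and -0.76 (equal weight); Krt15 had 16 UMIs there. Of 16 list medians past 2-fold, 0 changed sign under these alternatives; 41 of the 688 list medians under them did, all among medians within 2-fold. Small cell numbers, 23 and 30, and shallow microneedle cells limit what can be detected.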
